A study of Rattus norvegicus with 8 samples.

Results

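Gene expression in the rat hippocampus after the longest of 3 exposures to hypobaric hypoxia was compared with normoxia. The comparison rests on 4 of 8 Agilent single-colour arrays: the 2 titled day 7 of hypobaric hypoxia and the 2 titled normoxic control, chosen by their titles. All animals were male Sprague Dawley rats, and RNA came from the hippocampal region. Exposed rats were kept in a decompression chamber at a pressure equivalent to 25000 ft, given as an effective oxygen concentration of 8%. The title of the longest exposure says day 7, while its exposure field says 5 days. The labels do not settle this, and the group is called day 7 here. The other 4 arrays, 2 at day 1 and 2 at day 3 of the same exposure, entered the model and serve as further reference points. The labels do not give the animals' age, whether separate rats stand behind each pair of arrays, or whether RNA was pooled. The p-values therefore measure the spread between arrays, which may be technical.

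Cells sense oxygen through the hypoxia-inducible factors (HIF). With oxygen present, prolyl hydroxylases of the Egln family mark the alpha subunits Hif1a and Epas1 for destruction by the Vhl ubiquitin ligase. When oxygen falls, the alpha subunits persist, pair with Arnt and bind short DNA cores next to genes for glucose uptake, blood vessel growth, red cell production and iron supply. In the brain, sustained hypoxia is known for new capillary growth, and in the blood for a rise in red cells made under erythropoietin. Stress hormones of the adrenal cortex also act on the hippocampus, which holds many of their receptors.

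Of 21296 genes tested, 6717 (31.5%) were called higher and 6327 (29.7%) lower on day 7 than in normoxia, 61.3% in either direction. A gene was called when its adjusted p in limma, across all genes, was under 0.05. All differences are log2 differences of level, day 7 minus normoxia, where a level is the log2 signal of the gene's probe minus the array's 75th percentile. Changes of at least 2-fold were mostly decreases: 407 called genes (1.91%) were higher by that much and 2013 (9.45%) lower. Genes were tested if well above background on both arrays of any group, so normoxia alone could admit a gene dim on day 7. With signal required on all normoxia and day 7 arrays, 6883 genes were called higher and 5386 lower, at any fold. Without that requirement the higher share of the called genes was 51.5% with this scaling. It was 73.1% with each array centred on its median and 71.5% after normexp background correction. The median difference over all genes was -0.03 in the main scaling, 0.05 after quantile normalization, 0.26 with median centring and 0.22 after normexp. Median centring moves every gene's difference up by the same amount. A list of genes is therefore described by the number called in each direction, its median, and that median minus the median of all genes (the relative median). Because of the shared shift, a relative median is the same with median centring as in the main scaling. Of these scalings only quantile normalization and normexp can change it. With 2 arrays a group, both day 7 arrays lay above both normoxia arrays in 8361 genes (39.3%) and below them in 8859 (41.6%).

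Several measures of the arrays moved with the group. On the normoxia arrays 85.6% and 84.5% of spots were well above background, against 77.0% and 72.6% on the day 7 arrays. The 75th percentile of the signal was 4056 and 3494 in normoxia and 2329 and 2298 on day 7. The difference followed brightness: the median was -0.65 in the dimmest decile of genes and rose without a break to 0.36 in the brightest decile. Probes nearer the 5′ end of a transcript read lower on day 7 relative to probes nearer the 3′ end, where oligo-dT labelling starts. Upstream probes were already the dimmer ones in normoxia, and the part of brightness in this change was not tested. Over 888 transcripts with probes at least 1000 bases apart, the upstream probe lay below the downstream probe by a median of -3.57 and -3.52 on the normoxia arrays and -4.19 and -4.23 on the day 7 arrays. That gap widened in 81.0% of these transcripts by day 7, with a median change of -0.68. The median change was -0.37 at day 3 and -0.01 at day 1. All 8 arrays came from 1 slide and 1 scan, and each group had its own block of positions there, so position on the slide and group cannot be told apart. For probes on 10 spots, the gap between the 2 arrays of a group had a median of 0.0275 on day 7, where the spots' own spread alone would give 0.0224. In normoxia the same values were 0.0333 and 0.0139.

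**Figure D1:**
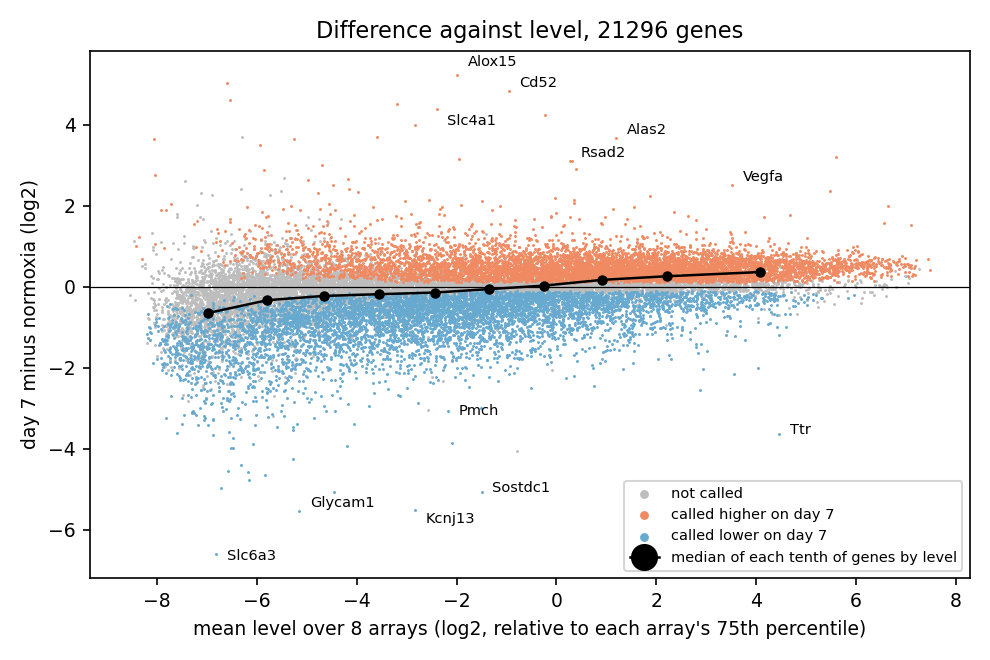
Each point is 1 of 21296 genes: the x axis is its mean level over 8 arrays (log2, relative to each array's 75th percentile) and the y axis the difference, day 7 minus normoxia (log2), with called genes coloured and the median of each decile of genes joined by a line. The line runs from -0.65 among the dimmest genes to 0.36 among the brightest.

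**Figure D2:**
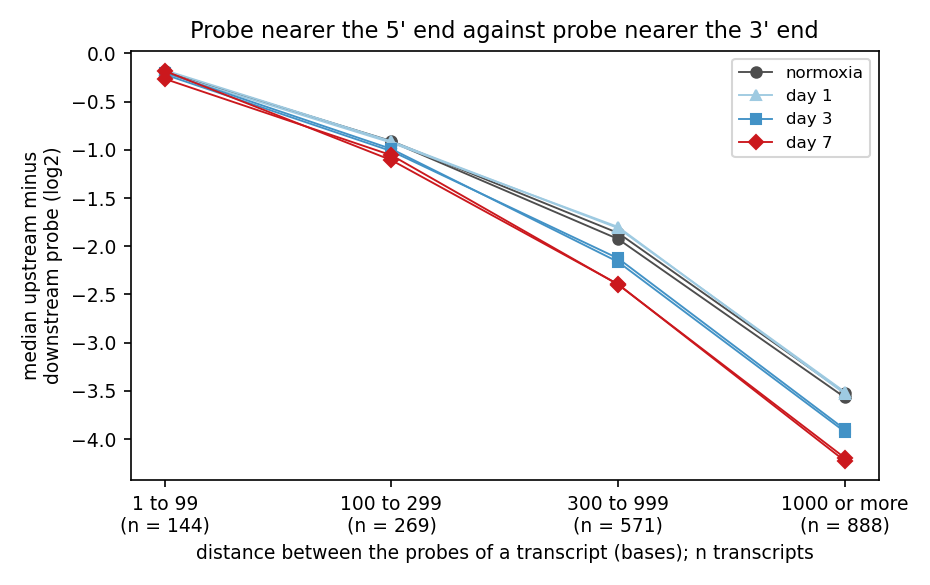
For transcripts with at least 2 probes, the y axis gives the median level of the upstream minus the downstream probe (log2) on each of the 8 arrays, and the x axis the distance between the probes in bases, with the number of transcripts. At 1000 bases or more the day 7 arrays sit at -4.19 and -4.23, below the normoxia arrays at -3.57 and -3.52.

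A gene's value is that of its brightest probe. Of 2197 called genes with a further probe on the array, every further probe pointed the same way in 1176 (53.5%). Among called genes with at least a 2-fold difference it did so in 179 of 229 (78.2%). The part that probe position plays in any list below was not tested, and further probes that point the other way are given beside the gene.

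HIF binds the core ACGTG or GCGTG, which reads CACGT or CACGC on the other strand. The 250 bases before the start of 4 hypoxia genes that were called higher on day 7 are shown to place this core beside their values, with each core in capitals, 5′ to 3′ on the plus strand of the RefSeq GRCr8 assembly.
Slc2a1, chr5:138002272-138002521: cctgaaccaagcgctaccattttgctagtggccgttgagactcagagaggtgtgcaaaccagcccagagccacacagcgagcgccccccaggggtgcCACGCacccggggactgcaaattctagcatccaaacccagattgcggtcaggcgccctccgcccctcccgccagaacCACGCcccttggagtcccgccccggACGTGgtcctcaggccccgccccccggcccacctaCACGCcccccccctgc
Ankrd37, chr16:53001257-53001506: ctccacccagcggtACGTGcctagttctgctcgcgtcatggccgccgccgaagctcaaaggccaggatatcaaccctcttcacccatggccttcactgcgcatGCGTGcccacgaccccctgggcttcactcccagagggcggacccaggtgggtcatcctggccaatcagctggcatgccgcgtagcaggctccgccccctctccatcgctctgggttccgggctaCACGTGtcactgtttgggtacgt
Vegfa, chr9:22452604-22452853: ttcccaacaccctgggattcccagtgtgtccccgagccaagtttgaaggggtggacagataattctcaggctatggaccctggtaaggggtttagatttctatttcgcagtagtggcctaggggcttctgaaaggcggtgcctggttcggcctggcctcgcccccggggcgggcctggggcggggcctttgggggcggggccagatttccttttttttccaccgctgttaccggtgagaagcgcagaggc
Adm, chr1:174179950-174180199: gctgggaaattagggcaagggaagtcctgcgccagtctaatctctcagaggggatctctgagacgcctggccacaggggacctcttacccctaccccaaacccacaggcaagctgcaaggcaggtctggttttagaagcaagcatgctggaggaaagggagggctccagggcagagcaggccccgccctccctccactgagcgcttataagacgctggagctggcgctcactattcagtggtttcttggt
Slc2a1 and Ankrd37 held 4 cores each, and in Ankrd37 a pair of them overlap in CACGTG. Vegfa, printed from 1 of its 2 entries, and Adm held 0 in this window. Counted by entry, 36.7% of all 33469 promoters of this length held at least 1 core. Counted by gene, where a core in any entry sufficed, 24 of the 32 matched HIF targets tested held 1. So did 11 of the 17 called higher (64.7%). Entries and genes are unlike measures, so these shares cannot be set directly against each other. A match of letters is a description and not a binding site.

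Among these hypoxia genes the largest rise was in Vegfa, the growth factor that starts capillary sprouting. Its level was 1.61 and 1.52 on the normoxia arrays and 4.0 and 4.14 on the day 7 arrays, a difference of 2.5 ± 0.07 (SE, n = 2 arrays a group) or 5.67-fold (adjusted p = 3.1e-05, limma). The day 7 arrays lay far above both normoxia arrays, and the gene's further probes differed by 2.41, 1.77 and 1.38. On the array's rn4 annotation the Vegfa probe lies at chr9:10535933-10535992. Slc2a1, the glucose transporter of the blood-brain barrier, read 2.53 and 2.62 in normoxia and 3.93 and 3.92 on day 7, 2.54-fold higher (adjusted p = 3.5e-05). Its probe lies at chr5:139718779-139718838 on rn4. Slc16a3, which exports lactate, read -2.30 and -2.29 against -0.96 and -0.90, 2.57-fold higher. Adm, the vessel-relaxing peptide adrenomedullin, read -1.69 and -1.72 against -0.28 and -0.25, 2.71-fold higher. Ankrd37, a small ankyrin-repeat protein, read -0.94 on both normoxia arrays and 0.04 and 0.02 on day 7, 1.95-fold higher. In all 5 genes the groups were apart by many times the gap between arrays.

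Of the 41 HIF targets outside glycolysis that were tested, 20 were called higher and 13 lower, with a median of 0.15. The relative median lay between 0.06 (normexp) and 0.21 (quantile), and was 0.19 in the main scaling. The counts were 22 higher and 8 lower after quantile normalization, 25 and 6 with median centring and 24 and 8 after normexp. Plod2, which modifies collagen, rose by 0.95, Ppp1r3c, a glycogen-targeting phosphatase subunit, by 0.73, and the mitophagy receptor Bnip3 by 0.59 (0.48 and 0.26 for the latter pair after quantile normalization). Tfrc, the transferrin receptor that brings iron into cells, rose by 1.00, although its further probe read -0.09 and the mean of its probes was not called (adjusted p = 0.0515). Fam162a rose by 0.81 with a further probe at -0.36, and the mean of its probes was not called (adjusted p = 0.249). Against these, Ndrg1 fell from 1.22 and 1.16 to 0.42 and 0.39, a difference of -0.78 (adjusted p = 1.4e-04). Ddit4, an inhibitor of the growth kinase mTOR, fell by 0.55, and Pdk1, a kinase that inhibits pyruvate dehydrogenase, by 0.33 (-0.03 and not called with median centring). The endothelin gene Edn1 fell from -4.10 on both normoxia arrays to -6.02 and -6.16, 3.98-fold lower (adjusted p = 5.7e-05), or -0.48 after normexp. Hmox1, which breaks down haem, rose by 0.21 (adjusted p = 0.0503 with only these groups in the fit). Car9, a carbonic anhydrase, differed by 0.28 and was not called (adjusted p = 0.064), but it was called higher at 0.57 with either quantile normalization or median centring and at 0.42 after normexp. Further probes pointed the same way in 3 of the 6 called targets that had them.

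The oxygen-sensing machinery had a lower relative median than the HIF targets in the main scaling (0.09 against 0.19). After normexp it did not (0.08 against 0.06). Of 12 HIF regulators, 5 were called higher and 2 lower (median 0.06), with differences from -1.15 to 0.62. The hydroxylase Egln2 fell by 0.86, Vhl rose by 0.62, and Cited2, which competes with HIF for a coactivator, rose by 0.47 (0.19 and not called with the trend on GC content removed). Egln3, itself a HIF target, rose by 0.23. Epas1 rose by 0.22 (adjusted p = 0.014) and Hif1a fell by 0.26 (adjusted p = 0.022, or a difference of 0.04 with median centring), while Hif3a differed by -0.22 and was not called (adjusted p = 0.67) but read 0.43 and was called higher after normexp (adjusted p = 0.0323). The calls of Epas1, Hif1a and Cited2 were each lost on leaving out 1 array, for more than 1 choice of array. Their differences kept their sign. Without the first normoxia array the difference was 0.19 for Epas1 and -0.28 for Hif1a, and without the second 0.45 for Cited2 and -0.23 for Hif1a. Without the first day 7 array it was 0.19 for Epas1 and -0.20 for Hif1a, and without the second 0.45 for Cited2. Of 11 glucose and lactate transporters 4 were higher and 4 lower. Slc2a8, an intracellular sugar transporter, fell from -1.91 and -1.88 to -4.03 and -3.95, 4.28-fold lower, and Slc2a5, the fructose transporter found on microglia, rose by 0.85.

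Vessel growth genes were split in direction. Of 14 VEGF and angiopoietin genes 5 were called higher (35.7%) and 5 lower (35.7%), with a median of 0.00. These shares are near those of all genes, 31.5% higher and 29.7% lower. Angpt2, the Tie2 ligand that loosens vessels for remodelling, rose from -3.81 and -3.82 to -2.21 and -2.30, 2.95-fold (adjusted p = 3.3e-05, limma). Kdr, the main VEGF receptor, rose from 1.58 and 1.64 to 3.03 on both day 7 arrays, 2.68-fold (adjusted p = 3.1e-05). Flt1, the decoy VEGF receptor, rose from -4.13 and -4.15 to -2.66 and -2.68, 2.77-fold. The groups did not overlap in any of these genes, but both day 7 arrays lay above both normoxia arrays in 39.3% of all genes. The Tie receptors went the other way: Tie1 fell from -4.34 and -4.53 to -6.10 and -6.41, and Tek was not well above background on day 7. For a probe like that a bound is given in place of a fold, set at the lowest signal among probes well above background on those arrays or at the probe's own signal where higher. Here and below, "at least" refers to this floor in the main scaling and is no limit under other processing. That floor was -7.57 and -6.97 on the day 7 arrays. Counting only probes with every spot well above background, it would be -6.41 and -5.92, which gives smaller folds. Tek was at least 3.75-fold lower (adjusted p = 0.0021). After normexp, which compresses dim signals, Tie1 read -0.31 and Tek -0.18. Nrp1, the VEGF co-receptor, fell by 0.90, and Vegfc, a ligand of lymphatic growth, rose by 0.49.

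Of 20 tip cell, Notch and apelin genes 8 were called higher and 1 lower, with a relative median between 0.10 (normexp) and 0.35 (quantile). Esm1, a product of sprouting tip cells, rose from -4.86 and -4.93 to -3.25 and -3.30. Dll4, the Notch ligand of tip cells, rose by 2.05, while its further probe read -0.14 and the gene read 0.07 with the trend on GC content removed. Hes1, a Notch target, rose by 1.27, Notch4 by 0.88, Jag1 by 0.89 and the peptide gene Apln by 0.88, and Eng, a TGF-beta co-receptor of endothelium, fell by 1.31. In neither of the 2 called genes with further probes did these point the same way. Of 14 basement membrane genes 6 were higher and 5 lower. The collagen gene Col4a1 rose by 2.25 and fibronectin, Fn1, by 1.84, but their further probes read -0.08 and 0.09. Nid2 rose by 0.94, while Nid1 fell by 1.04 and Lamb2 by 0.98.

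Endothelial markers were more often higher than lower: 16 of 32 were called higher and 7 lower, with a median of 0.25. The relative median was 0.28 in the main scaling and 0.06 after normexp. The summed signal of the list, set to a mean of 1 in normoxia, was 0.98 and 1.02 there and 1.61 on both day 7 arrays. Pecam1, an adhesion protein of endothelial cells, rose from -0.11 and -0.08 to 1.52 and 1.38, 2.92-fold (adjusted p = 4.3e-05). Vwf, the clotting carrier stored in endothelium, rose from 0.91 and 1.02 to 2.33 and 2.29, with the further probe at the same 1.35 difference as the main one. Not all members moved with them: Slc38a5, a glutamine transporter of brain endothelium, fell by 1.45 and Plvap, a marker of leaky capillaries, by 0.71. In this bulk tissue more cells of a type and more RNA per cell cannot be told apart. In the vasodilator and vasoconstrictor genes 5 of 17 were higher and 8 lower: the endothelin receptor Ednrb fell by 1.14, the converting enzyme Ace by 1.23 and the adrenomedullin co-receptor Ramp3 by 1.07. Further probes pointed the same way in 3 of 6 called endothelial markers.

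**Figure D3:**
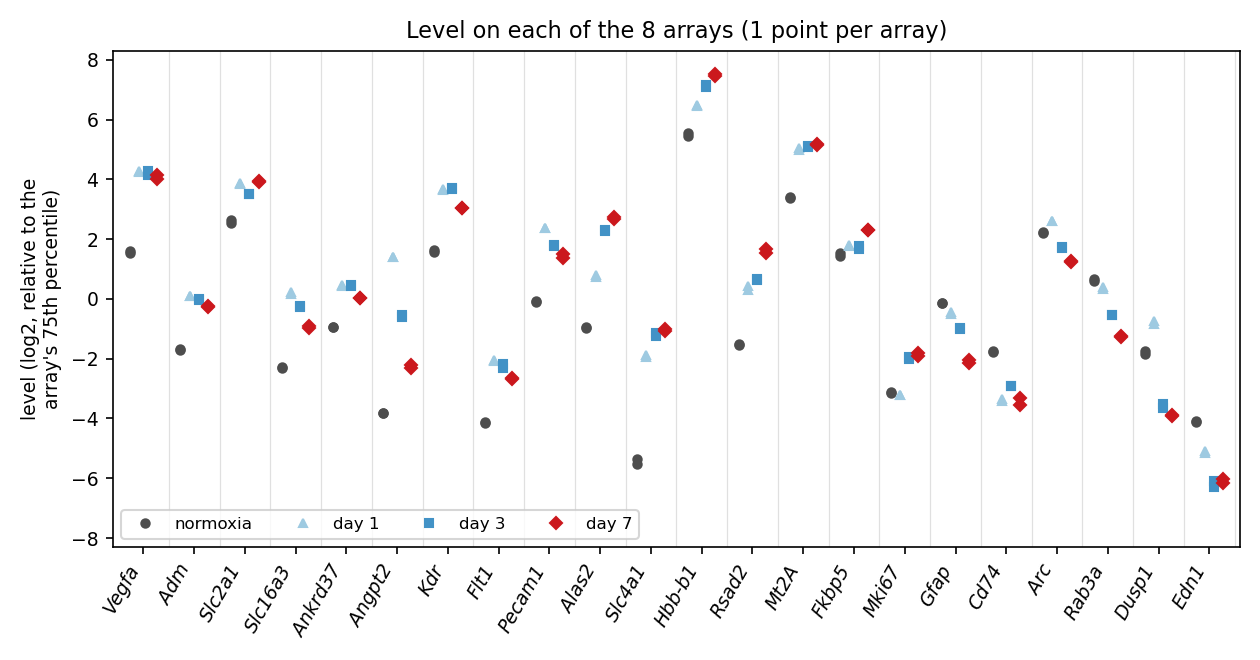
Each point is 1 array and each column 1 gene, with level on the y axis (log2, relative to the array's 75th percentile), and the 4 groups are told apart by colour and shape. Heights can be compared within a gene and not between genes. Vegfa, Slc2a1, Kdr, Alas2 and Rsad2 sit higher on the day 7 arrays than in normoxia, and Gfap, Cd74, Rab3a, Dusp1 and Edn1 sit lower.

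Red blood cell genes rose further than any other list. Of 16 tested, 12 were called higher, 10 of them by at least 2-fold, and 2 lower, with a median of 1.78 and a relative median from 1.30 (normexp) to 1.81 (main scaling). The summed signal of the list was 0.95 and 1.05 in normoxia and 3.27 and 3.20 on day 7. Alas2, the rate-limiting enzyme of haem synthesis in red cell precursors, read -0.97 and -0.96 in normoxia and 2.66 and 2.75 on day 7, 12.7-fold higher (adjusted p = 1.4e-05, limma). Slc4a1, the red cell anion exchanger, read -5.35 and -5.53 against -1.0 and -1.08, 21.1-fold higher (adjusted p = 1.8e-05). Both genes left a wide space between the groups. Ahsp, the alpha-haemoglobin chaperone, read -3.07 and -3.19 against 1.13 and 1.11, 19.0-fold higher, with a further probe at 4.29. Hemgn, a nuclear protein of erythroid cells, was 23.0-fold higher, and Rhag, of the Rh complex, at least 10.7-fold higher, with a difference of 1.66 after normexp. The globin genes were already bright in normoxia: Hbb-b1 rose from 5.44 and 5.53 to 7.46 and 7.52, and Hbb from 5.58 and 5.69 to 7.24 and 7.19. Globin genes are near copies of each other, so their probes may share transcripts. Further probes pointed the same way in 4 of 4 called members. The part of blood left in the tissue was not tested.

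Genes of other blood cells were split. Of 22 neutrophil and platelet genes 7 were called higher (31.8%) and 3 lower (13.6%), with a median of 0.20. Of all genes 31.5% were higher and 29.7% lower. After normexp the list had 19 higher and 0 lower, when 10254 of all 21296 genes were higher and 4086 lower. Alox15, a lipoxygenase found in reticulocytes and some leukocytes, had the largest rise of the called genes with a symbol: it read -5.20 and -5.50 in normoxia and -0.09 and -0.13 on day 7, 37.8-fold higher. Cd52, a surface glycoprotein of leukocytes, rose from -4.03 and -4.11 to 0.79 and 0.76, 28.7-fold. The platelet genes Pf4 and Itga2b rose by 1.39 and 0.93, while the neutrophil protease Mmp9 fell by 0.56 and the granule gene Ngp by 1.30, which read 0.40 (Mmp9) and 0.43 (Ngp) after normexp. Of 12 lymphocyte genes only 1, the pan-leukocyte Ptprc, was called higher (0.38, with a further probe at -0.84 and -0.23 as the mean of its probes) and 2 lower. After normexp 9 were higher and 0 lower, and that list's relative median turned from -0.36 in the main scaling to 0.03 with quantile normalization and 0.18 with normexp.

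Genes of protein synthesis and of the respiratory chain moved as broad groups of small changes. Of 78 cytosolic ribosomal protein genes 74 were called higher and 0 lower, with a median of 0.50. The relative median was 0.53 but 0.03 after quantile normalization, under which 28 were higher and 5 lower. The brightest decile of all genes had a median of 0.36. Rpl11 rose by 0.77 and Rpl21 by 0.75, or 0.27 and 0.30 after quantile normalization. Further probes pointed the same way in 46 of 49. Of 73 oxidative phosphorylation genes 49 were called higher and 11 lower (median 0.32), but after quantile normalization 14 were higher and 29 lower and the relative median turned from 0.35 to -0.14. Ndufb3 of complex I rose by 0.85 and Cox6c of complex IV by 0.67 (0.48 and 0.17 after quantile normalization), while Atp5b, the catalytic subunit of ATP synthase, fell by 1.42. Of 69 mitochondrial ribosomal protein genes 39 were higher and 14 lower, with a relative median of 0.23 that became -0.02 after normexp. Of 34 proteasome genes 17 were higher and 7 lower, and the relative median turned from 0.22 to -0.10 with quantile normalization and -0.06 with normexp.

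Glycolysis did not move as a unit. Of 21 enzymes 10 were called higher and 6 lower, and the relative median turned from 0.09 to -0.21 with quantile normalization and -0.08 with normexp. Pgk1 rose by 0.56, Tpi1 by 0.54 and Pfkp, a subunit of the rate-setting phosphofructokinase, by 0.72. After quantile normalization Pfkp read 0.32, and Pgk1 and Tpi1 read 0.09 each and were not called (adjusted p = 0.18 and 0.109). Aldoa fell by 1.03 and Pkm by 0.73, and Pkm's further probe also read lower (-0.90). Of 26 genes of pyruvate dehydrogenase and the citric acid cycle 6 were higher and 13 lower (relative median -0.12), though median centring gave 12 higher and 4 lower. Ogdh fell by 1.58, Pdhb by 1.18 and Mdh2 by 0.63, and Idh3g rose by 0.50.

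Genes that stress hormones and metals induce were more often higher than lower. Of 23 glucocorticoid response genes 13 were called higher and 5 lower, with a median of 0.25 and a relative median between 0.10 (normexp) and 0.29. The metallothionein Mt2A, which binds zinc and copper, rose from 3.41 and 3.39 to 5.17 and 5.16, 3.41-fold, with a further probe at 1.01, and Mt1a rose by 1.31. Fkbp5, a chaperone that restrains the glucocorticoid receptor, rose from 1.54 and 1.45 to 2.30 and 2.29. Both day 7 arrays stood above both normoxia arrays in these genes, which was so in 39.3% of all genes. Tsc22d3, a direct receptor target, rose by 1.01, the crosslinking enzyme Tgm2 by 1.33, and Sgk1, a kinase of ion transport, by 0.24 (adjusted p = 0.0553 without the first day 7 array and 0.265 after quantile normalization, at 0.08). Dusp1, a phosphatase that ends MAP kinase signals and another receptor target, fell from -1.84 and -1.74 to -3.88 and -3.92. Nr3c2, the mineralocorticoid receptor, rose by 0.65 with a further probe at -0.41, and the mean of its probes was not called (adjusted p = 0.181).

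Of 27 iron, haem and metallothionein genes 13 were called higher and 7 lower (relative median 0.05 after normexp to 0.12 after quantile normalization). Hp, the haemoglobin-binding protein haptoglobin, rose by 1.30 and the zinc and manganese importer Slc39a8 by 1.23, while the ferrireductase Steap2 fell by 0.94. Of 37 antioxidant genes 13 were higher and 17 lower, or 20 and 9 with median centring. Keap1, the sensor that holds back the antioxidant factor Nrf2, fell by 1.71 and the quinone reductase Nqo1 by 0.85, while the lipid peroxide reductase Gpx4 rose by 0.53 (0.06 and not called after quantile normalization). Of 19 p53 targets 8 were higher and 7 lower: Ccng1, cyclin G1, rose from -1.11 and -1.09 to 1.73 and 1.90, 7.55-fold, and Ei24 fell by 2.28. Of 29 Bcl2 family and caspase genes 15 were higher and 8 lower, with Bik, a killer protein of the endoplasmic reticulum, up by 2.52 and Casp9 down by 1.23.

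Interferon-stimulated genes were mostly higher, and antigen presentation genes were lower. Of 35 interferon-stimulated genes 22 were called higher and 4 lower, with a median of 0.52 and a relative median between 0.32 (normexp) and 0.55. Rsad2, the antiviral enzyme viperin, read -1.50 and -1.53 in normoxia and 1.53 and 1.67 on day 7, 8.67-fold higher. Isg20, an exonuclease, rose by 1.32, Irf7, a factor that amplifies interferon, by 1.18 and the ubiquitin-like Isg15 by 1.08. Tap1, the peptide transporter for MHC class I, fell by 1.33. None of the 4 called members with further probes had all of them in the same direction. Of 9 MHC class II genes 0 were higher and 6 lower (median -0.37, relative median -0.33 to -0.41 over the scalings; with median centring 1 was higher and 2 lower). Cd74, the invariant chain that guides class II molecules, fell from -1.75 and -1.78 to -3.32 and -3.54, 3.18-fold.

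Of 25 microglia markers 5 were called higher and 13 lower (relative median -0.19), while median centring gave 11 higher and 7 lower. Csf1r, the receptor microglia depend on, fell by 1.1, Tmem119 by 0.73 and the purinergic receptor P2ry12 by 0.71, and the factor Irf8 was at least 2.84-fold lower, though its difference read 0.12 after normexp. The further probes of 6 of 6 called members pointed the same way. Trem2, a lipid receptor, rose by 0.41, and Aif1, the microglial marker Iba1, differed by 0.24 and was not called (adjusted p = 0.071, limma). Its further probe read 0.77, and Aif1 was called higher as the mean of its probes (0.51, adjusted p = 0.00113) and with median centring (0.54, adjusted p = 0.00418). The summed signal of the list, 1.06 and 1.11 on day 7, was not below normoxia at 0.99 and 1.01; bright members weigh most in such a sum. Of 33 cytokine and NF-kB genes 12 were higher and 13 lower, or 21 and 7 after normexp: Il6r rose by 1.68, the chemokine Ccl5 by 1.11 and Il1b by 0.72.

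Astrocyte markers were split in direction, and myelin markers were lower more often than higher in the main scaling. Of 24 astrocyte markers 11 were called higher and 9 lower, and the relative median turned from 0.06 to -0.23 with quantile normalization and -0.12 with normexp. Gfap, the astrocyte filament protein, fell from -0.12 and -0.14 to -2.13 and -2.05, 3.89-fold, but its further probe read 0.01. The gap junction gene Gja1 rose by 0.61, and Mlc1, a membrane protein of astrocyte endfeet, fell by 1.31. Of 26 myelin genes 6 were higher and 15 lower, with a relative median between -0.25 (main scaling) and -0.44 (quantile), although median centring gave 11 higher and 12 lower. The summed signal of the myelin list was 1.14 and 1.13 on day 7, against 0.94 and 1.06 in normoxia. Cldn11, of the myelin tight junction, fell by 1.24, Cnp by 1.24 and Myrf, the factor that drives myelination, by 1.31, while Mog rose by 0.70 and Mbp by 0.46 (adjusted p = 0.032). Without any 1 of 3 arrays, both day 7 arrays and the first normoxia array, the adjusted p of Mbp was 0.0816 to 0.113, and it was 0.95 after quantile normalization, where the difference was 0.01. Of 14 pericyte and smooth muscle genes 4 were higher and 6 lower: the contractile genes Tagln and Myh11 fell by 2.30 and 1.68, and Kcnj8, the potassium channel of pericytes, rose by 1.56 and Pdgfrb by 0.79.

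In neurons, genes of vesicle release were lower more often than higher. Of 41 such genes 23 were called lower and 10 higher (median -0.30), 18 lower and 15 higher with median centring, with a relative median between -0.27 and -0.47. The list's summed signal was 1.00 on both day 7 arrays, against 0.99 and 1.01 in normoxia. Rab3a, a small GTPase of synaptic vesicles, read 0.62 and 0.68 in normoxia and -1.27 and -1.26 on day 7, 3.75-fold lower. Nsf, which takes spent SNARE complexes apart, fell by 1.69, while Dnm1, which pinches vesicles off, fell by 1.51 and Syn1 by 1.13. Snap25, a SNARE protein, fell by 0.83 and its further probe read -2.12, while Unc13c fell by 1.29 and its further probe read 0.37. Further probes pointed the same way in 6 of 11. These transcripts are measured in the same samples where upstream probes read lower relative to downstream probes than in normoxia. The part of probe position was not tested.

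Glutamate receptor genes gave no common direction, while GABA-A receptor and interneuron genes were lower more often than higher in the main scaling. Of 34 AMPA, NMDA and kainate receptor genes 14 were higher and 11 lower, with a relative median from -0.07 (normexp) to 0.10 (main scaling). The AMPA subunit Gria1 fell by 1.18 while Gria3 rose by 1.21, with a further probe at 0.45. Of 30 GABA-A receptor and interneuron genes 18 were lower and 6 higher, which median centring turned to 7 lower and 10 higher. Their relative median stayed below 0, from -0.20 (main scaling) to -0.35 (normexp). Calb2, the calcium buffer calretinin, fell by 1.07. Of 28 sodium and calcium channel genes 10 were higher and 14 lower, or 12 and 8 with median centring, and Scn3b rose by 1.01. The relative median of that list ran from -0.14 (quantile) to -0.19 (main scaling). Of 32 immediate early genes 17 were lower and 10 higher, again turned by median centring to 9 lower and 12 higher. The relative median of the immediate early genes was -0.18 (main scaling) to -0.33 (normexp). Their summed signal was 1.24 and 1.23 on day 7, against 1.00 on both normoxia arrays. Arc, which moves AMPA receptors off the synapse after activity, fell from 2.23 and 2.22 to 1.26 and 1.22. Fos fell by 0.39 (-0.10 and not called with median centring) and Bdnf, the activity-driven neurotrophin, by 0.22 (adjusted p = 0.0076, or a difference of 0.08 with median centring), while Jund rose by 1.22. Ntrk2, the Bdnf receptor, rose by 1.00, but its further probes read -0.54, 0.49 and -0.74 and the mean of its probes was not called (adjusted p = 0.2).

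Markers of hippocampal neurons were split in direction, and 1 of the 27 tested was too dim on day 7 to be measured well. Of 27 pyramidal and granule cell markers 11 were higher and 8 lower (median 0.03), and the list's summed signal was 1.28 and 1.32 against 0.98 and 1.02 in normoxia. Wfs1, a marker of the CA1 field, fell by 1.13 and Calb1, calbindin, by 0.80. Neurod6, a factor of pyramidal neurons, differed by 0.12 (-0.06 after quantile normalization), and the dentate factor Prox1 by -0.74 without being called (adjusted p = 0.3). With only these groups in the fit Prox1 was called lower (adjusted p = 0.00725), and after normexp it read 0.44 and was called higher (adjusted p = 0.00123). Genes of dividing cells were more often higher: 20 of 39 cell cycle genes were called higher and 9 lower, with a relative median between 0.31 (normexp) and 0.51 (quantile). Mki67, present only in cycling cells, rose from -3.14 and -3.12 to -1.79 and -1.92, with further probes at 1.48 and 0.62. Birc5, survivin, rose by 1.64, Ccna2 by 1.38 and the replication helicase subunit Mcm4 by 1.00, and Ccnd1 fell by 1.06. In 6 of 6 called members with further probes these pointed the same way. Of 21 neurogenesis genes 8 were higher and 9 lower: Dcx, of migrating young neurons, rose by 0.48 and Hes5, of neural stem cells, fell by 1.57. Which cells divided cannot be read from bulk tissue.

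**Figure D4:**
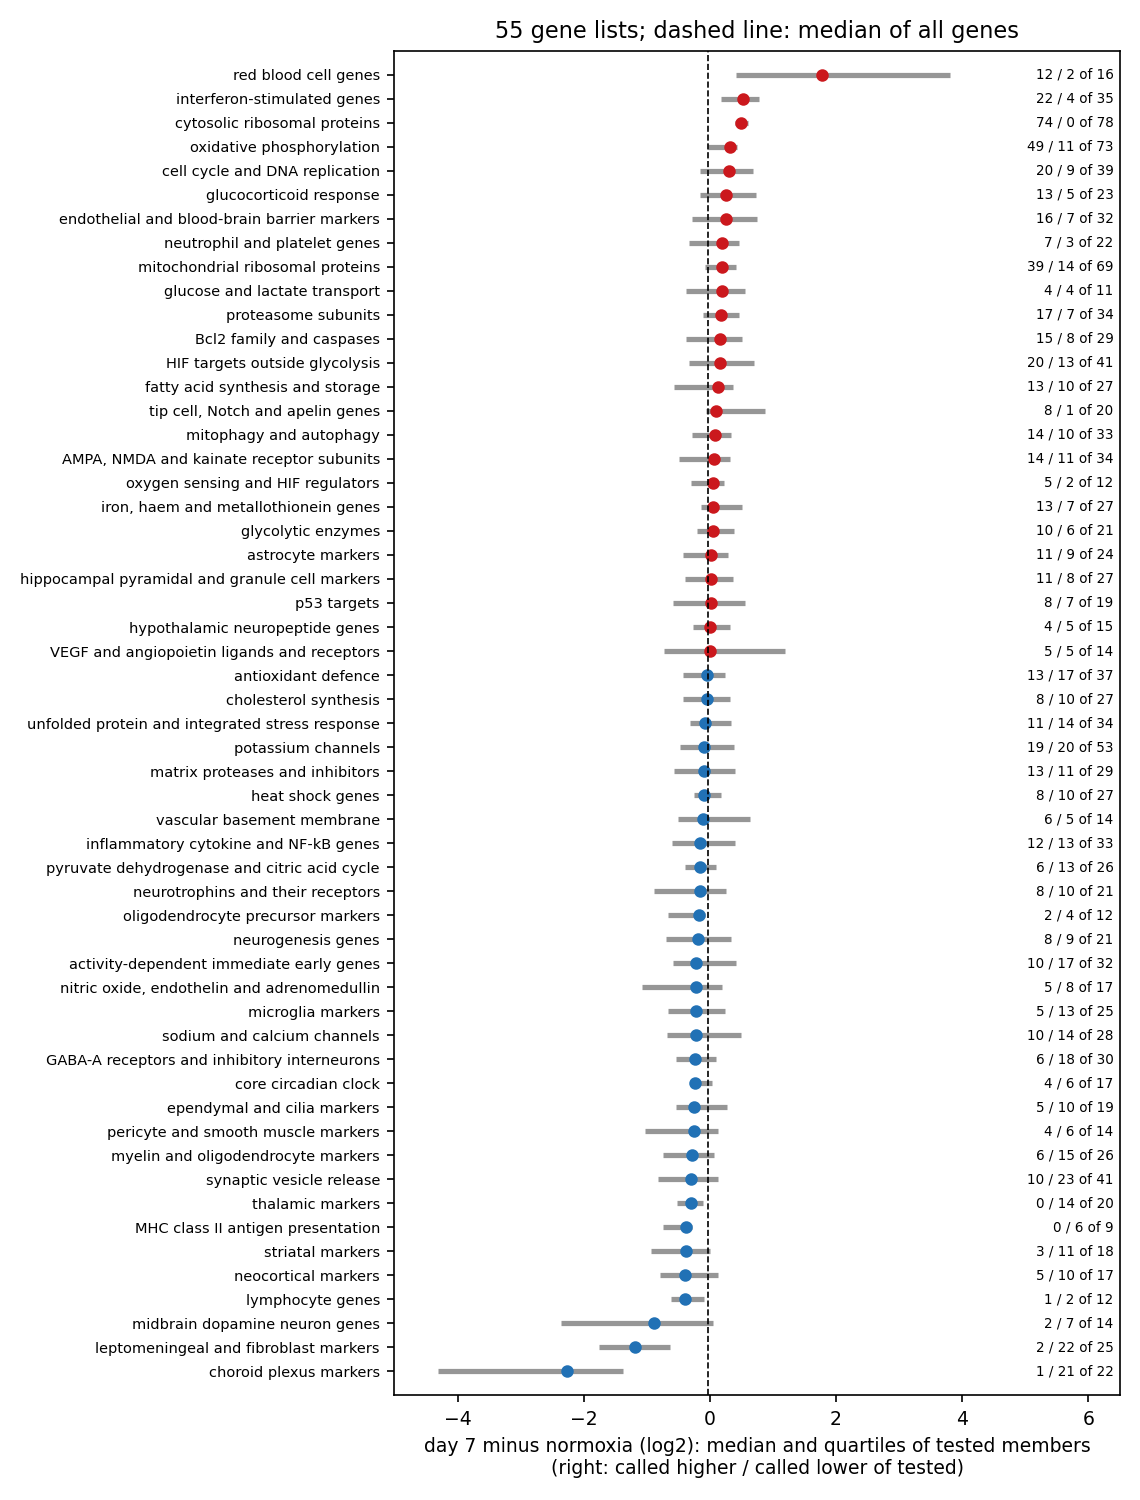
Each of the 55 gene lists has a dot at the median difference of its tested members, day 7 minus normoxia (log2), a bar from the lower to the upper quartile and, at the right, the numbers called higher and lower of those tested. The dashed line is the median of all genes, -0.03. Red blood cell genes lie farthest right at 1.78 and choroid plexus markers farthest left at -2.26.

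Many of the largest falls were in genes of tissues that border the hippocampus. Of 22 choroid plexus markers 21 were called lower, 17 of them by at least 2-fold, and 1 higher, with a median of -2.26. The relative median was -1.45 or below in the main scaling, after quantile normalization and after normexp. Ttr, transthyretin, the main secreted protein of this epithelium, fell from 6.83 and 6.96 to 3.32 and 3.21, 12.4-fold. Sostdc1, a secreted Wnt and BMP inhibitor, fell from 1.48 and 1.39 to -3.62 and -3.67, 33.8-fold, and the potassium channel Kcnj13 from -0.23 and -0.28 to -5.68 and -5.87, 45.9-fold. Both day 7 arrays were low alike. The summed signal of the list was 0.96 and 1.04 in normoxia and 0.13 on both day 7 arrays. It was 0.06 on both arrays of day 1 and 1.33 and 1.25 for day 3, so it did not follow the length of exposure. Of 25 leptomeningeal and fibroblast markers 22 were lower and 2 higher (median -1.18), and their sum was 0.47 on both day 7 arrays. The fibrillar collagens Col1a2 and Col3a1 fell by 1.79 and 1.76 and Igf2 by 1.77.

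Several lists of other brain regions were lower more often than higher, and the hypothalamic list was split. Of 14 midbrain dopamine neuron genes 7 were called lower, all by at least 2-fold, and 2 higher (median -0.88; summed signal 0.77 on both day 7 arrays). Slc6a3, the dopamine transporter, read -1.73 and -1.96 in normoxia and dropped out of the range well above background on day 7. By the bound used here it was at least 43.0-fold lower in the main scaling, with a further probe at -2.81. Its difference was -2.60 with the trend on GC content removed and -2.79 after normexp, both smaller changes than that bound. Th, which makes the dopamine precursor, read 1.82 and 2.33 against -0.22 and -0.52, and Slc18a2, which loads monoamines into vesicles, fell by 2.10. Of 15 hypothalamic markers 4 were higher and 5 lower (9 and 3 with median centring), with a median of 0.01. Among them Pmch, a peptide of the lateral hypothalamus, fell from 0.30 and 0.28 to -2.77 and -2.78. Of 20 thalamic markers 14 were lower and 0 higher (4 higher and 6 lower with median centring), and their sum was 0.70 on both day 7 arrays. Of 18 striatal markers 11 were lower and 3 higher (7 and 6 with median centring), with sums of 0.96 and 0.95. Of 17 neocortical markers 10 were lower and 5 higher, with sums of 0.83 and 0.85, and of 19 ependymal markers 10 were lower and 5 higher (2 and 7 after normexp), with sums of 1.02 and 1.00. How much of these tissues each dissection held was not measured, and its part in the differences was not tested.

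**Figure D5:**
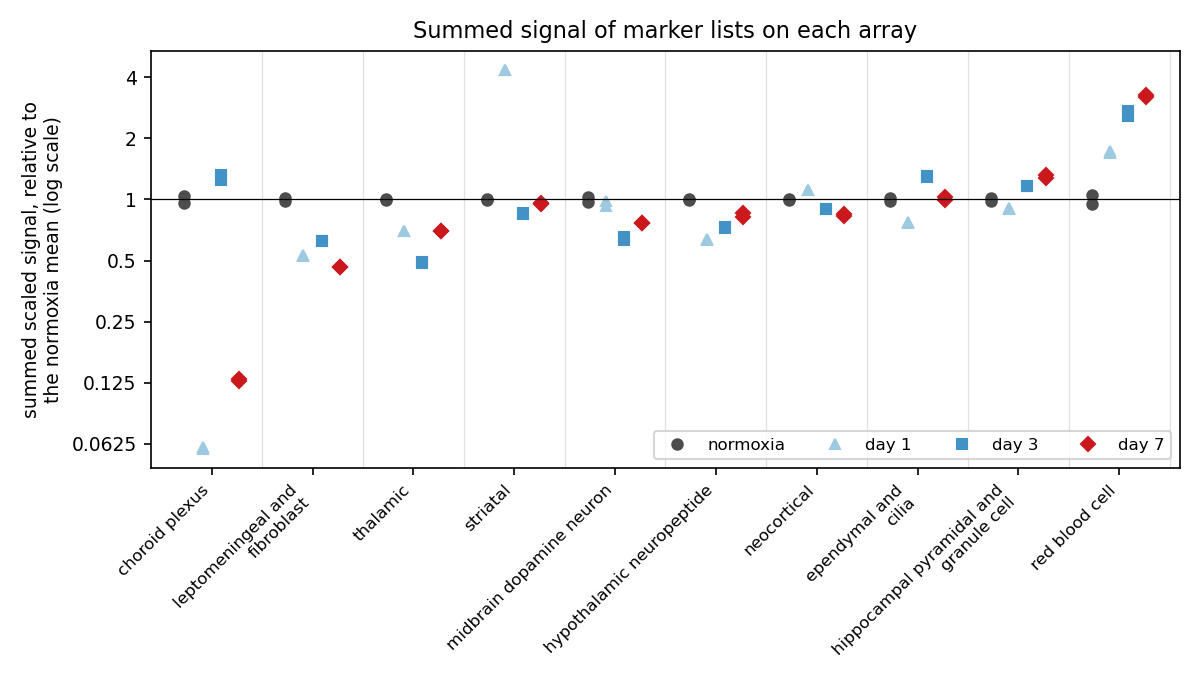
Each point is 1 array: the y axis is the summed signal of a marker list relative to the mean of the normoxia arrays, on a log scale, and the lists are along the x axis. Choroid plexus markers are at 0.13 on both day 7 arrays and at 0.06 on both day 1 arrays, and red blood cell genes rise from 0.95 and 1.05 in normoxia to 3.27 and 3.20 on day 7.

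Comparisons of day 7 with the shorter exposures share the day 7 arrays with the comparison above, so their values are set side by side. Against day 3, 5146 genes (24.2%) were called higher on day 7 and 3888 (18.3%) lower, 42.4% in either direction. By at least 2-fold 191 (0.897%) were higher and 459 (2.16%) lower. Against day 1, 7619 (35.8%) were higher and 5651 (26.5%) lower, 62.3% in either direction. By at least 2-fold 526 (2.47%) were higher and 1910 (8.97%) lower. Angpt2 was lower on day 7 than at both shorter exposures, with a difference of -1.67 from day 3 (adjusted p = 1.4e-04) and -3.65 from day 1 (adjusted p = 9.0e-06, limma). The difference from day 3 was -0.65 in Kdr, -0.68 in Slc16a3 and -0.24 in Adm. These genes were thus still above normoxia on day 7 but below day 3. Slc2a1 instead was 0.41 higher on day 7 than on day 3, and Esm1 was 1.21 higher. Of 41 HIF targets 4 were higher and 15 lower than on day 3, and 8 higher and 23 lower than on day 1.

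The summed signal of the red cell genes was highest on day 7, at 3.27 and 3.20, after 2.74 and 2.58 on day 3 and 1.74 and 1.69 on day 1, and 6 of 16 members were called higher on day 7 than on day 3, with 1 lower. Interferon-stimulated genes were higher on day 7 than on day 3 in 18 of 35 and lower in 2, with Rsad2 higher by 0.94. Of 27 cholesterol synthesis genes 8 were higher than in normoxia and 10 lower, with a relative median of -0.02. The counts were 15 and 6 with median centring and 3 and 12 after quantile normalization. The relative median was -0.18 after quantile normalization and -0.25 after normexp. Against day 3, 17 of the 27 were higher and 1 lower. Microglia markers were higher than on day 3 in 13 of 25 and lower in 4. Vegfb, a VEGF family ligand, had the largest rise from day 3, by 5.75, with a difference from normoxia of -0.21 that turned to 0.09 with median centring.

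Against day 1 striatal genes were much lower: Drd2, the D2 dopamine receptor, differed by -4.48, day 7 minus day 1. All 18 striatal markers were called lower than on day 1, where their summed signal was 4.35 and 4.33. Ttr was 2.89 higher on day 7 than on day 1, and its difference from day 3 was -4.07.

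Among the remaining genes with the largest rises were Kcne3, a potassium channel subunit that was not well above background in normoxia and was at least 11.1-fold higher (a difference of 1.55 after normexp), and Meox1, a homeobox gene, higher by 2.31. Cd36, a fatty acid and thrombospondin receptor, rose by 2.15 with a further probe at 2.08, Pla1a, a phospholipase, by 2.15 and Acer2, a ceramidase, by 1.97. Among the largest falls outside the lists was Glycam1, a mucin-like glycoprotein, at least 23.3-fold lower, with a difference of -1.92 after normexp.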

How the data were processed

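RNA from the hippocampal region, 500 ng a sample, was labelled with Cy3 and hybridised to 8 Agilent single-colour arrays. Per the file headers, each deposited scanner file holds processed signals, linear intensity values that Agilent Feature Extraction 11.5.1.1 had background-corrected. The deposited value table holds log2 values; set against the scanner files, they equal log2 of the processed signal, shifted by each array's 75th percentile, to within 0.05 for 96.7% to 97.4% of probes after adding 1 constant an array, and direction and centring follow from that. They served as an alternative.

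From the scanner files, control spots and outlier flags were left out, spots of a probe were averaged on the log2 scale and each array's 75th percentile was subtracted. Probes had to be well above background on both arrays of some group (24678 of 30367), and a gene took its probe with the highest mean level (21296 genes, 14471 with a symbol; 1240 symbols have newer names and are given as on the array). One limma 3.58.1 model with 4 group means was fitted over all 8 arrays (R 4.3.3, eBayes, 4 residual degrees of freedom, two-sided, Benjamini-Hochberg adjustment over all genes). On simulated data with the same noise, 50 of 21296 genes each were changed by 0.5, 1, 2 and 3. Of these 54%, 72%, 92% and 96% were recovered, with 13 false calls. Far fewer genes were changed there than the 61.3% called here. The adjustment depends on that share, so these rates need not hold for this comparison.

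The groups, gene lists and tests were chosen with earlier results of these data known. Genes named are the 30 largest called rises and falls, the 8 called members with the smallest p in each list, the 10 largest differences from day 3 and day 1 in each direction, and a set of anchor genes such as Vegfa and Gfap, in each case only in part. The precision is limited by 2 arrays a group: the median gap between them was 0.0762 in normoxia and 0.0949 on day 7. Figures used Python 3.11.15 and matplotlib 3.10.9.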

Additional observations from a re-analysis of the deposited data

Results flagged for a closer look

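Genes that stood at least 2-fold above normoxia on day 3 and at least 2-fold below it on day 7, and were called between the 2 exposures in limma, were singled out; each value is day 7 minus day 3 on the log2 scale. Glycam1 differed by -6.80: it read 1.26 above normoxia on day 3 and was not well above background on day 7. Cyp4f5, a cytochrome P450 of fatty acids, differed by -4.11, from 2.32 above normoxia on day 3 to a difference of -1.79 on day 7. Scgb1c1, a secretoglobin, differed by -3.14, with a day 7 difference from normoxia of -2.02. Cdh3, P-cadherin, differed by -3.03, with a day 7 difference from normoxia of -1.89. Cox8b, a muscle form of a respiratory chain subunit, differed by -2.14, with a day 7 difference from normoxia of -1.07. Choroid plexus markers moved the same way, with a summed signal of 1.33 and 1.25 on day 3 and 0.13 on both day 7 arrays; their part in these genes was not tested.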

How the results depend on the processing

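The counts moved most with the scaling and with a fold threshold. Against normoxia, 10115 genes were higher and 3730 lower with median centring, and 10254 and 4086 after normexp. Requiring 2-fold left 2420, of which 407 were higher and 2013 lower. Against day 3, fitting only the 2 groups compared gave 5358 (2912 higher, 2446 lower), median centring gave 8414 higher and 2487 lower, and 2-fold left 650 (191 and 459). Against day 1, median centring gave 3666 lower, and 2-fold left 2436 (526 and 1910). Leaving out each array in turn gave 11083 to 12212 called against normoxia (5891 to 6236 higher, 5167 to 5976 lower), 6779 to 7704 against day 3 (3623 to 4218, 3056 to 3486) and 11302 to 12522 against day 1 (6552 to 7096, 4750 to 5426); a lone array is assumed to vary like the other groups.

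Single genes reversed as follows. Neurod6 read -0.057 after quantile normalization and -0.16 with the trend on GC content removed. Vegfb read 0.0015 after quantile normalization and 0.089 with median centring. With median centring Bdnf read 0.077 and Hif1a 0.040. After normexp Irf8 read 0.12, Mmp9 0.40 and Ngp 0.43, and Mmp9 read 0.22 in the deposited values. Ptprc read -0.23 as the mean of its probes. Hif3a and Prox1, not called here, were called higher after normexp at 0.43 and 0.44. Calls were also lost in Pgk1, Tpi1, Gpx4, Mbp, Sgk1 and Bdnf after quantile normalization and in Pdk1 and Fos with median centring. Calls were lost on leaving out 1 array in Hif1a, Epas1, Mbp, Neurod6, Vegfb, Cited2 or Sgk1, with no change of sign. Of the genes named with a difference over 0.5, the value moved by over 1.5 times in 28 after normexp, 19 after quantile normalization, 17 with median centring, 15 as the mean of probes, 5 with the GC trend removed and 1 in the deposited values. The cause of these changes was not tested.

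The replicate numbers are in the labels, but same-numbered arrays did not deviate together (correlations from -0.149 to 0.047), so they share only a number. With the replicate number as a block, 6555 genes were higher and 6147 lower against normoxia, 4756 and 3672 against day 3, and 7464 and 5537 against day 1. Chosen after seeing the data, taking each gene's probe nearest the 3′ end, which changed the probe of 459 genes, gave 6701 higher and 6308 lower, and leaving out 148 genes of 8 neighbouring-tissue lists gave 6695 and 6229. Signal over background limits the dim genes: in the dimmest decile 1623 genes lacked a well measured signal on both day 7 arrays.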

Other observations

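Lists outside the response described above were split in direction. Of 34 genes of the unfolded protein and integrated stress response 11 were called higher and 14 lower on day 7 (18 and 5 with median centring): the chaperone Hyou1 rose by 1.04 and the mitochondrial folate enzyme Mthfd2 by 1.17 (further probes at -0.67 and 1.12, 0.54 as the mean of its probes), and Pdia3, a disulfide isomerase, fell by 1.1. Of 27 heat shock genes 8 were higher and 10 lower, but 16 and 3 with median centring and 3 and 13 after quantile normalization. The small heat shock gene Hspb1 fell by 1.47. Of 17 clock genes 4 were higher and 6 lower (7 and 2 with median centring): Npas2, a partner of Arntl, rose by 0.81 while its further probe read -0.03, and Nr1d1, which represses Arntl, fell by 1.01. The labels do not give the hour of sampling.

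Of 33 mitophagy and autophagy genes 14 were higher and 10 lower (20 and 6 with median centring), with the mitophagy receptor Bnip3l up by 0.98 and the cargo receptor Nbr1 down by 1.11. Of 27 fatty acid genes 13 were higher and 10 lower (15 and 5 with median centring): Elovl2, which lengthens polyunsaturated fatty acids, rose by 1.05 with a further probe at -0.43 and 0.31 as the mean of its probes, and the desaturase Fads1 fell by 0.94. In the cholesterol pathway Idi1 rose by 0.45. Of 29 matrix protease genes 13 were higher and 11 lower (8 and 13 after quantile normalization, 15 and 7 with median centring): Plat, tissue plasminogen activator, rose by 1.36 and Adamts9 by 1.2, and the inhibitor Timp3 fell by 1.68.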
